A study of Homo sapiens with 10 samples.

Results

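The genes described here are 8 factors of early neuronal and glial specification, NEUROG1, NEUROG2, NEUROD1, NEUROD4, INSM1, NHLH1, OLIG1 and OLIG2. They were taken as a named list with no threshold on their values, out of 24050 genes in the RNA-seq tables of either cell type. The list was chosen with earlier results of these data known. All 8 are listed in the table of HEK293T cells, which holds 22750 genes. In the table of neural progenitor cells (NPCs), which holds 20965 genes, 7 are listed, and OLIG2 was not analysed there. The study removed ZNF274, a zinc finger protein with a KRAB domain, with CRISPR-Cas9 and guide RNAs on both sides of the gene, and compared knockout (KO) with wild-type (WT) cells. HEK293T is a human embryonic kidney line that carries the SV40 large T antigen, with 3 WT libraries (S15, S16 and S17) and 3 KO libraries (S18, S19 and S20). The NPCs were made from H1 human embryonic stem cells by way of embryoid bodies and held as progenitors in culture, and gave 2 libraries of each genotype (WT S3 and S5, KO S1 and S2). The cells received no other labelled treatment. The study names HEK293T clones for other assays, and averages NPC expression of protocadherin genes over 2 parental cell lines. The labels do not say which clone or line a library came from. The p-values therefore measure the spread between these libraries.

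Proneural factors are basic helix-loop-helix (bHLH) proteins that pair with broadly expressed E proteins, bind the DNA letters CANNTG (the E-box) and commit dividing neural progenitors to a neuronal fate. NEUROG1 and NEUROG2 act early and switch on a cascade of later bHLH factors that includes NEUROD1, NEUROD4 and NHLH1. ID proteins block the pairing, and HES and HEY proteins, many of them Notch targets, repress proneural genes. OLIG1 and OLIG2 are bHLH factors of the ventral neural tube and of the oligodendrocyte lineage. INSM1 is a factor of the same transition in neural and endocrine precursors, but it is a zinc finger protein, so the family name is not accurate for it.

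On the GRCh37 (hg19) assembly, the coordinates and strands of these protein-coding genes are as follows. NEUROG1 lies at chr5:134869972-134871654 on the minus strand and NEUROG2 at chr4:113434672-113437336 on the minus strand. NEUROD1 lies at chr2:182533022-182545554 on the minus strand, NEUROD4 at chr12:55413758-55423801 on the plus strand and NHLH1 at chr1:160336861-160342636 on the plus strand. INSM1 lies at chr20:20348748-20351593, OLIG1 at chr21:34442447-34444719 and OLIG2 at chr21:34398243-34401504, all on the plus strand. The genes are compact, and the canonical transcripts of NEUROG1, INSM1 and OLIG1 have 1 exon and those of the other members 2. Exons of NEUROG2 share 92 bases with the antisense gene NEUROG2-AS1, and those of OLIG1 share 201 bases with an antisense lncRNA, ENSG00000227757. NEUROD1 shares 236 exonic bases with CERKL on the same strand, which had at most 8 counts in any library. The library kit marks the strand, but the strand setting of the counting is not given in the sources used here, so reads in these short overlaps may belong to either gene.

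The upstream sequences of NEUROG2 and NEUROD4, which were both at 0 counts in the KO NPCs, and of NHLH1, which had counts in every NPC library, are shown because proneural factors act on each other through E-boxes. They are the 250 bases before the annotated start site in RefSeq on GRCh38.p14, printed 5′ to 3′ along the gene, with each CANNTG in capitals. They span chr4:112516181-112516430 on the minus strand, chr12:55019724-55019973 on the plus strand and chr1:160366821-160367070 on the plus strand.
NEUROG2: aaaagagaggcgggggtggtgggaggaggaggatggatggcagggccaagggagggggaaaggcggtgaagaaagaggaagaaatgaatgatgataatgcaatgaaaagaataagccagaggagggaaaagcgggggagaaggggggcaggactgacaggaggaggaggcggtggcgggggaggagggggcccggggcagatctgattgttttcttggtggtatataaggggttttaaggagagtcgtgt
NEUROD4: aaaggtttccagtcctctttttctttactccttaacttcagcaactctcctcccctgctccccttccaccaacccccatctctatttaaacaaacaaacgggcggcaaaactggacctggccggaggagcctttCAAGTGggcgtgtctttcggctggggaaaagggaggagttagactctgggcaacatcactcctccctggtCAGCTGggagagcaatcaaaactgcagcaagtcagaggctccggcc
NHLH1: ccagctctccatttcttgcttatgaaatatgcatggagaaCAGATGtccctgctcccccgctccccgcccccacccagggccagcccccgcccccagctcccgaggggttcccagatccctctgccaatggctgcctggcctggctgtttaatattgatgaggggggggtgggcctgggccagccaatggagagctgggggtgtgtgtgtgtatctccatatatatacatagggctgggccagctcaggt
The RefSeq promoter table held 5 of the 8 members. Both strands were searched for CANNTG and for its forms CAGATG and CAGCTG, which it contains, and for CACNAG, letters bound by HES proteins. In NEUROD4 a CAAGTG began at position -116 and a CAGCTG at -46 from the start site, and in NHLH1 a CAGATG began at -210. The windows of NEUROG1, NEUROG2 and NEUROD1 held no CANNTG, and none of the 5 held CACNAG. Of 35116 promoter windows of the same length, 61.8% held CANNTG, 12.2% CAGATG, 14% CAGCTG and 32% CACNAG. These matches describe letters in short windows and are not bound sites.

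Total counts were 18621266 to 23035490 in the NPC libraries and 21421013 to 32285876 in the HEK293T libraries. ZNF274 had 491 and 496 counts in WT NPCs, 423 to 492 counts in WT HEK293T cells and 0 counts in all 5 KO libraries, as the genotype labels require. The floor, meaning the highest level that a count of 0 allows, was set at 3 counts, or 0.135 to 0.154 CPM in NPCs and 0.0921 to 0.131 CPM in HEK293T cells. Levels are CPM, the counts scaled to a common library size by TMM, and floors and intervals on counts cover counting error alone. All members were low, with no more than 49 counts in any NPC library, so single libraries carry much of each value. Since these are bulk samples, fewer cells of a type and less RNA per cell cannot be told apart.

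The first comparison asked which members change in NPCs without ZNF274. NEUROG2, NEUROD4 and INSM1 were called lower in KO than in WT NPCs, and no member was called higher, but none of the 3 calls held in limma voom or without KO library S2. OLIG1 was also at 0 counts in both KO libraries but did not pass the test on the NPC libraries, although it was called lower when all 10 libraries were fitted together. NEUROG1 had 2 counts in KO against 18 in WT and did not pass either, while NHLH1 and NEUROD1 kept counts in the KO library S1. A gene was called at a Benjamini-Hochberg adjusted p below 0.05 and a fold change above 2 in edgeR's quasi-likelihood test. Leaving out an NPC library leaves a single library in its group, so the spread then comes only from groups with more libraries. Calls gained or lost in such fits show only how the result moves.

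NEUROG2, the proneural factor of dorsal telencephalic and sensory progenitors, had 3 counts (0.142 CPM) in WT library S3 and 34 counts (1.74 CPM) in WT library S5. Both KO libraries had 0 counts. The groups did not overlap, although WT S3 was itself at the floor and nearly all the WT signal came from S5. Taken as measured, the WT mean of 0.941 ± 1.13 CPM (SD, n = 2) was at least 6.64-fold higher than the mean floor of the KO libraries. WT S5 alone was at least 12.3-fold higher, and WT S3 alone set no bound. The fitted log2 fold change (FC) was -7.29 with a standard error (SE) of 2.14 (edgeR's quasi-likelihood test, adjusted p = 0.0497). The call was lost in limma voom and without WT S5, KO S1 or KO S2. Fitted values of genes at 0 in a group depend on the prior count and are not bounds.

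NEUROG1, the neurogenin of sensory and ventral progenitors, had 4 counts (0.189 CPM) in WT S3 and 14 counts (0.717 CPM) in WT S5. It had 2 counts (0.0988 CPM) in KO S1 and 0 counts in KO S2. Both KO libraries were below both WT libraries, by a margin of 2 counts between KO S1 and WT S3. Summed over libraries and scaled for depth, WT had 9.4 times the KO level, with a 95% exact interval of 2.25 to 83.5 on the counts. That interval leaves out the spread between libraries. The fitted log2 FC was -3.09 ± 1.40 (SE), with an adjusted p of 0.145 by edgeR's quasi-likelihood test. It ran from -6.26 without KO S1 to -1.87 without WT S5, and was -3.75 without WT S3, each with a single library left in that group.

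NEUROD4, a bHLH factor downstream of the neurogenins, had 5 counts (0.237 CPM) in WT S3 and 24 counts (1.23 CPM) in WT S5. Both KO libraries had 0 counts. The groups were separate, but most of the WT counts came from S5. The WT mean of 0.733 ± 0.701 CPM (SD, n = 2) was at least 5.17-fold higher than the KO floor, and WT S3 alone at least 1.67-fold. NEUROD4 had a fitted log2 FC of -6.93 ± 1.84 (SE) and an adjusted p of 0.0366 by edgeR's quasi-likelihood test. Its call was lost in limma voom and without WT S5, KO S1 or KO S2.

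NEUROD1, which drives terminal differentiation of neurons and of endocrine cells, had 1 count (0.0473 CPM) in WT S3 and 12 counts (0.614 CPM) in WT S5. It had 7 counts (0.346 CPM) in KO S1 and 0 counts in KO S2. The groups overlapped, since KO S1 lay between the WT libraries. The log2 FC of -0.93 ± 1.56 (SE) had a 95% interval of -4.61 to 2.76 and an adjusted p of 0.703 by edgeR's quasi-likelihood test, so neither direction could be called. Without WT S5 the log2 FC was 1.70, and without KO S2 it was 0.07.

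NHLH1, a bHLH factor of newly formed neurons, had 12 counts (0.568 CPM) in WT S3 and 17 counts (0.870 CPM) in WT S5. In KO it had 14 counts (0.691 CPM) in S1 and 3 counts (0.135 CPM) in S2. KO S1 lay inside the WT range and KO S2 was at the floor. The WT to KO ratio of summed counts was 1.78, with a 95% exact interval of 0.946 to 3.45 on the counts, without the spread between libraries. The log2 FC was -0.80 ± 0.84 (SE), with a 95% interval of -2.79 to 1.18 and an adjusted p of 0.523 by edgeR's quasi-likelihood test. It was -2.36 without KO S1 and -0.0646 without KO S2, so the value depended on which KO library was kept.

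INSM1, the zinc finger factor of delaminating and newborn neuronal precursors, was the member with the most counts in NPCs. It had 49 counts (2.32 CPM) in WT S3 and 17 counts (0.870 CPM) in WT S5. In KO it had 3 counts (0.148 CPM) in S1 and 0 counts in S2. INSM1 was the member whose separation between WT and KO rested on the most counts, and in WT it was higher in S3 than in S5. The WT to KO ratio of summed counts was 23, with a 95% exact interval of 7.52 to 114 on the counts. It leaves out the spread between libraries. INSM1 had a log2 FC of -4.38 ± 1.05 (SE) and an adjusted p of 0.0209 by edgeR's quasi-likelihood test. The log2 FC was -8.07 without KO S1 and -3.39 without KO S2, and the call was lost without KO S2 and in limma voom.

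OLIG1 had 2 counts (0.0947 CPM) in WT S3, 15 counts (0.768 CPM) in WT S5 and 0 counts in both KO libraries. WT S3 was under the floor, so the separation rested on WT S5. Taken as measured, the WT mean of 0.431 ± 0.476 CPM (SD, n = 2) was at least 3.04-fold higher than the KO floor. WT S5 alone was at least 5.42-fold higher, and WT S3 alone set no bound. The fitted log2 FC was -6.17 ± 2.13 (SE), with an adjusted p of 0.0796 by edgeR's quasi-likelihood test. OLIG2, the closely related factor that specifies motor neuron and oligodendrocyte progenitors, was not analysed in NPCs.

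**Figure D1:**
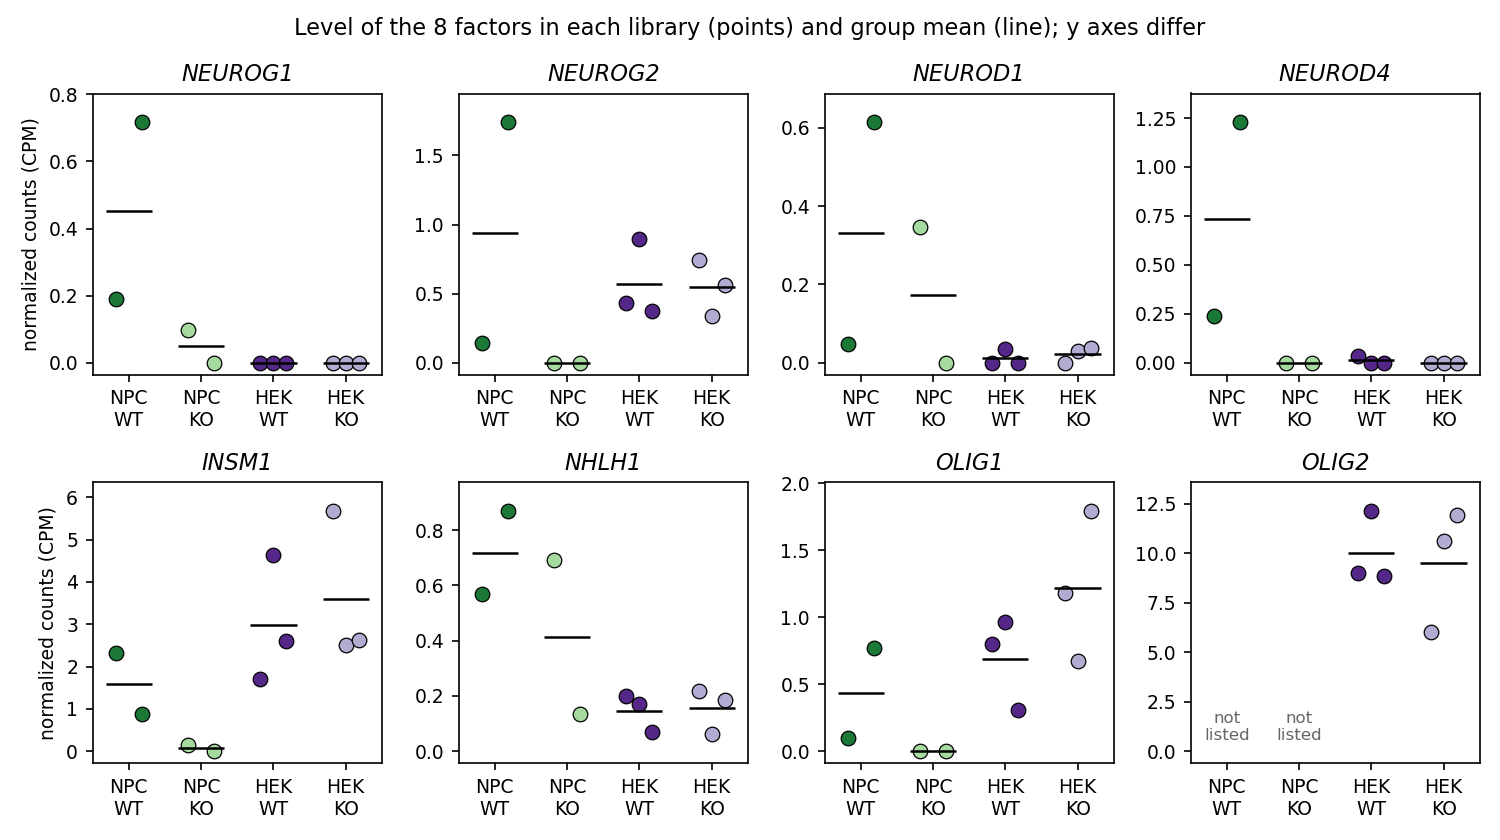
Normalized counts (CPM, y axis, linear, scaled by gene) of the 8 factors in each of the 10 libraries, grouped by cell type and genotype on the x axis; points are libraries and lines are group means. In NPCs, NEUROG2, NEUROD4 and OLIG1 were at 0 in both KO libraries, while HEK293T WT and KO libraries overlapped for every member with counts in both genotypes, and OLIG2 stood highest at up to 12.2 CPM.

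Over the family in NPCs, 7 members were tested, of which 3 were called lower and 0 higher, and 4 had an unadjusted p below 0.05, as did 40.3% of all genes. Over all 20577 genes tested in NPCs, 8.36% were called lower and 8.45% higher. For 5 of the 7 members both KO libraries were below both WT libraries, a pattern that 33.8% of all genes tested showed. For these same 5 members the KO counts alone would not have passed the filter on low counts, so they were tested only because of their WT levels, and the shares of members give no support to a direction. With filterByExpr, a stricter filter, INSM1 (log2 FC -4.39, called) and NHLH1 (-0.82, not called) were the members left to test. DESeq2 also called 3 members lower, whereas limma voom called 0 at these thresholds. Each fit without an NPC library has a single library in that group, so the other group alone gives the spread. The count moved with single libraries. Without WT S3 it was 5, without WT S5 it was 1, without KO S1 it was 1, and without KO S2 it was 0.

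**Figure D2:**
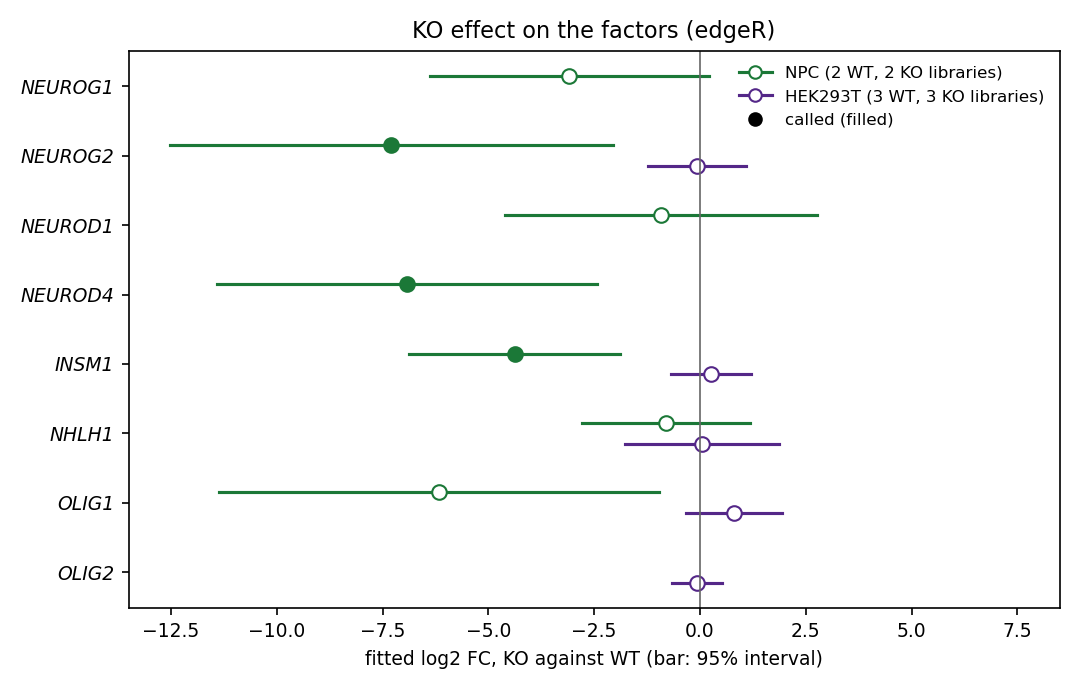
Fitted log2 FC of KO against WT (x axis) for each factor (y axis) in NPCs and in HEK293T cells, with bars for the 95% interval and filled points for called genes. NEUROG2, NEUROD4 and INSM1 are called lower in NPCs, and all 5 intervals in HEK293T cells include 0; genes not drawn in a cell type were not tested there.

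The WT NPC libraries differed from each other for most members. Scaled for depth, 6 of 7 members had more counts in S5 than in S3. The share of all genes higher in S5 is not given here, so this count does not set the members apart. The ratio was 12.3 for NEUROG2 (95% exact interval on the counts 3.85 to 62.4), 5.19 for NEUROD4 (1.94 to 17.4) and 3.78 for NEUROG1 (1.19 to 15.8). It was 13 for NEUROD1 (1.92 to 555) and 8.11 for OLIG1 (1.89 to 73.1). INSM1 went the other way, with an S5 to S3 ratio of 0.375 (0.203 to 0.663), and the interval for NHLH1, 0.689 to 3.52 around 1.53, included 1. These ratios compare 2 libraries, not conditions. All 7 members summed to 3.60 CPM in WT S3 and 6.81 CPM in WT S5, and to 1.28 CPM in KO S1 and 0.135 CPM in KO S2. In S2, NHLH1 was the one member with a count, and in S1 the members with counts were NHLH1, NEUROD1, INSM1 and NEUROG1.

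Levels of different genes were compared per kilobase of canonical transcript (CPM per kb). In WT NPCs the order was INSM1 (0.560 ± 0.360), NEUROG2 (0.410 ± 0.492), NHLH1 (0.281 ± 0.0835), NEUROG1 (0.269 ± 0.222), OLIG1 (0.190 ± 0.209), NEUROD4 (0.187 ± 0.179) and NEUROD1 (0.133 ± 0.161; SD, n = 2 throughout). Each neighbouring pair in that order overlapped between libraries, while the libraries of INSM1, at the top, lay above those of NEUROD1, at the bottom. In WT HEK293T cells OLIG2 led with 4.04 ± 0.747 CPM per kb (SD, n = 3), followed by INSM1 with 1.05 ± 0.530. OLIG1 (0.304 ± 0.151), NEUROG2 (0.247 ± 0.124) and NHLH1 (0.0574 ± 0.0273) came next. There the libraries of OLIG2 did not overlap those of INSM1, nor INSM1 those of OLIG1, nor NEUROG2 those of NHLH1, while OLIG1 and NEUROG2 overlapped. NEUROD1, NEUROD4 and NEUROG1 had at most 1 count in any HEK293T library.

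The same comparison in HEK293T cells asked whether the members also change there without ZNF274. No member was called. OLIG2 had 270, 353 and 262 counts in WT (9.01, 12.2 and 8.88 CPM) and 138, 346 and 319 in KO (6.03, 10.6 and 11.9 CPM). The groups overlapped, with KO S18, the shallowest HEK293T library, the lowest. The log2 FC of OLIG2 was -0.07 ± 0.27 (SE), with a 95% interval of -0.66 to 0.53. INSM1 had 51, 135 and 77 counts in WT (1.70, 4.65 and 2.61 CPM) and 130, 82 and 70 in KO (5.68, 2.52 and 2.62 CPM), again overlapping, for a log2 FC of 0.27 ± 0.43 (SE). OLIG1 had 24, 28 and 9 counts in WT (0.801, 0.964 and 0.305 CPM) and 27, 22 and 48 in KO (1.18, 0.676 and 1.79 CPM). Its log2 FC of 0.81 ± 0.51 (SE) was the largest among the members here, with an adjusted p of 0.798 by edgeR's quasi-likelihood test, and WT and KO libraries overlapped.

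NEUROG2 in HEK293T cells had 13, 26 and 11 counts in WT (0.434, 0.895 and 0.373 CPM) and 17, 11 and 15 in KO (0.743, 0.338 and 0.561 CPM). These levels overlapped and gave a log2 FC of -0.07 ± 0.52 (SE). The antisense NEUROG2-AS1 had 17 to 32 counts in the same libraries. NHLH1 had 6, 5 and 2 counts in WT and 5, 2 and 5 in KO, with a log2 FC of 0.05 ± 0.82 (SE) and a 95% interval of -1.77 to 1.86, too wide to tell a change from none. NEUROG1 had 0 counts in all 6 libraries, NEUROD1 had 0, 1 and 0 counts in WT and 0, 1 and 1 in KO, and NEUROD4 had 1 count in S15 alone. These last 3 fell under the filter on low counts and were not tested. Of the 5 members tested, edgeR's quasi-likelihood test called 0, with 0 at an unadjusted p below 0.05, and DESeq2 and limma voom also called 0. Over all 19018 genes tested in HEK293T cells, 0.0105% were called lower and 0.478% higher.

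A call in one cell type and none in the other does not test a difference, so the KO effect in NPCs was compared with that in HEK293T cells as an interaction over all 10 libraries. NEUROG2, INSM1 and OLIG1 differed, each with a lower KO effect in NPCs. The difference of log2 FC was -7.50 ± 2.13 (SE) for NEUROG2 (adjusted p = 0.036, edgeR's quasi-likelihood test), -4.65 ± 1.15 for INSM1 (adjusted p = 0.0175) and -7.26 ± 2.04 for OLIG1 (adjusted p = 0.0343). For NEUROG2 and OLIG1 the fitted differences rest on KO NPC libraries at 0 counts. NHLH1 (-0.82 ± 1.15, SE) and NEUROD1 (-1.75 ± 2.44, SE) did not pass, and neither did NEUROG1 or NEUROD4, for which edgeR gave no usable SE, since HEK293T cells had 1 count between them. Neither of these was called in limma voom. In all, 3 of 7 members were called lower and 0 higher, against 6.22% and 6.01% of 19255 genes, or 1197 lower and 1157 higher. The members were chosen with earlier results of these data known, so these shares give no support to a direction. Scaling by library size alone gave 1702 lower and 843 higher over all genes and called the same number of members. DESeq2 called 3 members as well, and limma voom 1. INSM1 kept its call in limma voom, and NEUROG2 and OLIG1 did not. INSM1 lost its call without WT NPC S3, at a difference of -3.77, and NEUROG2 without KO HEK293T S18. Without KO NPC library S2 the count was 0, and it was 1 without KO NPC S1, WT NPC S5, WT HEK293T S15 or S17, or KO HEK293T S20.

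The level of the members was also compared between WT NPCs and WT HEK293T cells. NEUROG1, NEUROD1, NEUROD4 and NHLH1, the neuronal bHLH members other than NEUROG2, were called higher in NPCs. NEUROG1, NEUROD1 and NEUROD4 had 0, 3 and 1 counts over the 6 HEK293T libraries and passed the filter on low counts only through NPCs, so any call of these 3 had to be higher. NEUROG1 was at 0 counts in WT HEK293T cells and at least 4.45-fold higher in NPCs, or at least 1.86-fold in WT NPC S3 alone (fitted log2 FC 6.53 ± 1.63 SE, adjusted p = 0.00834, edgeR's quasi-likelihood test). NEUROD4 had a log2 FC of 5.51 ± 1.27 (SE), NEUROD1 of 4.36 ± 1.56 and NHLH1 of 2.26 ± 0.77, with adjusted p of 0.00448, 0.0301 and 0.0245 by the same edgeR test. NEUROG2, INSM1 and OLIG1 did not differ beyond their spread, with log2 FC of 0.72 (95% interval -1.05 to 2.49), -0.89 (-2.23 to 0.46) and -0.68 (-2.45 to 1.08). Over all 19255 genes 25.2% were called higher and 15.5% lower in NPCs, where 4 of 7 members were called higher and 0 lower, with 4 at an unadjusted p below 0.05, as were 61% of all genes. The member count gives no support beyond NHLH1, the called member that filterByExpr also kept and called. NHLH1 itself lost its call without WT HEK293T S17, at a log2 FC of 1.925. DESeq2 called 2 members and limma voom 3. Without WT NPC S5 the count was 0, since NEUROD1 and NHLH1 lost the call and NEUROG1 and NEUROD4 were not tested, and without WT HEK293T S17 it was 2. The cell types were counted in separate tables, and cell type and library batch cannot be told apart.

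Genes that work with the members were read in the NPC comparison from fixed lists. The lists were chosen with earlier results of these data known, so their counts give no support to a direction. Over all genes tested in NPCs, 40.3% had an unadjusted p below 0.05 by edgeR's quasi-likelihood test, 8.36% were called lower and 8.45% higher. Among 12 other bHLH factors of the nervous system, 7 were listed and 5 tested, with 0 called by edgeR, 2 at an unadjusted p below 0.05 and a median log2 FC of -1.38. Among these, BHLHE22, had 7 and 2 counts in WT S3 and S5 and 0 in both KO libraries. Of the E proteins, TCF3 fell (log2 FC -1.04 ± 0.12 SE, adjusted p = 0.00124, edgeR's quasi-likelihood test), close to the 2-fold threshold. TCF4 was lower (-0.56 ± 0.11 SE, adjusted p = 0.0102, same test) but missed that threshold and was not called. TCF12 (0.05 ± 0.11 SE) was not called. Of 12 ID, HES, HEY and REST genes, 5 were called lower, 0 higher and 7 were not called, with a median log2 FC of -1.35. HES6, one of the 5, is known to oppose HES1 and to favour neuronal differentiation, unlike the inhibitors on the list. REST, a repressor of neuronal genes, had a log2 FC of 0.48 ± 0.18 (SE) and was not called. ID4 (-4.38 ± 0.29 SE), ID2 (-3.06 ± 0.35), HEY1 (-2.23 ± 0.30) and ID1 (-1.91 ± 0.27) had the smallest p-values.

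Among 26 neuronal commitment genes downstream of proneural factors, 25 were tested, 6 were called lower and 2 higher, and the median log2 FC was -0.83. The shares over all genes tested in NPCs were 8.36% lower and 8.45% higher. CXCR4, a chemokine receptor of migrating neurons, fell from 821 and 670 counts in WT to 10 and 6 in KO (S1 and S2). POU3F2, a neuronal POU factor, fell from 823 and 2710 counts to 25 and 12, and RND2, a small GTPase that NEUROG2 is known to switch on, from 1448 and 1563 to 368 and 457. EBF3, a neuronal differentiation factor, rose from 6 and 10 counts to 57 and 161, so the list did not move one way. Around the OLIG factors, 7 of 11 oligodendrocyte lineage genes were tested. Of these, 3 were called higher (CSPG4, MBP and SOX10) and 0 lower, with a median of 2.84. SOX10 and CSPG4 are also expressed in neural crest and in pericytes or other mesenchyme. Of 7 ventral Hedgehog patterning genes tested, 4 were called lower (SMO, HHIP, GLI3 and PTCH1) and 0 higher, with a median of -1.04. The fitted log2 FC was above 0 for 2 of the 7 and ran from -3.04 to 2.12.

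**Figure D3:**
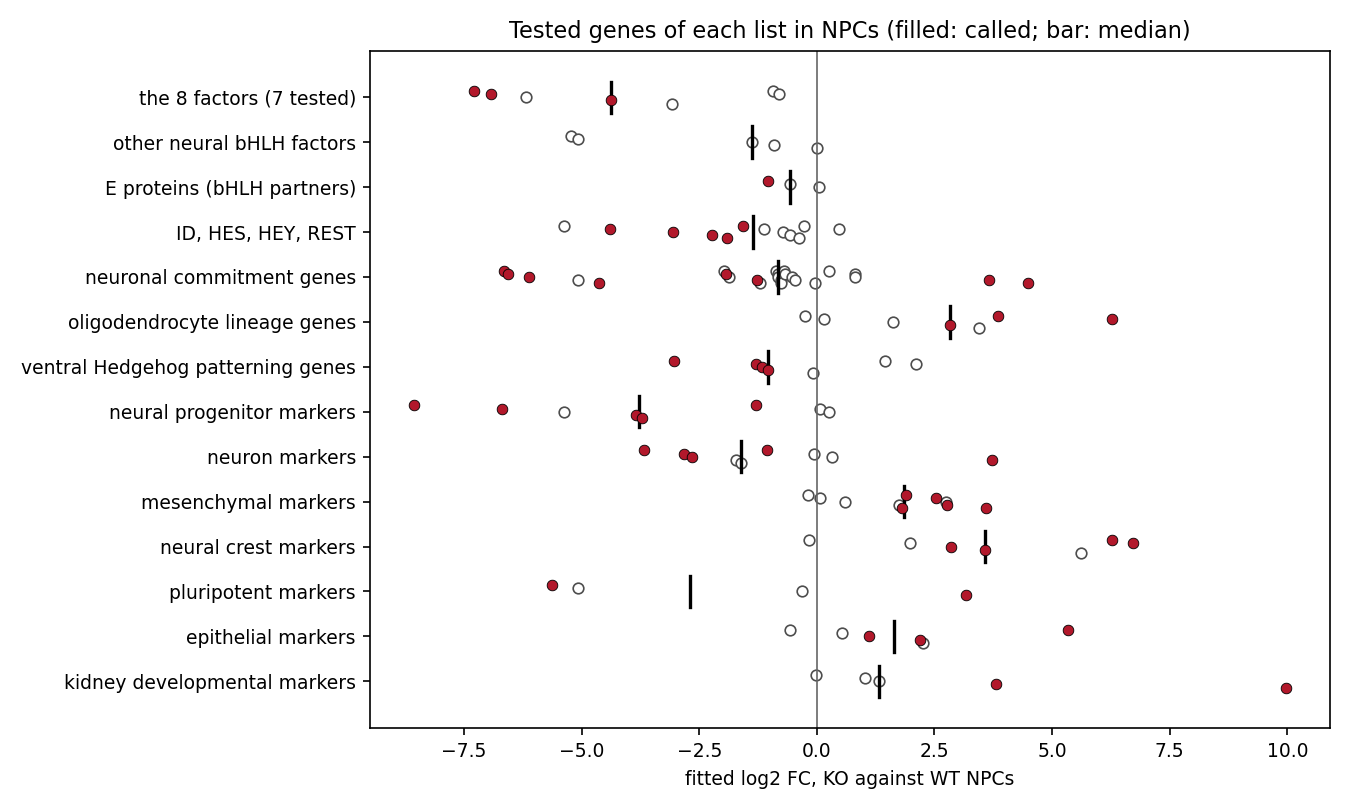
Fitted log2 FC of KO against WT NPCs (x axis) for the tested genes of the 8 factors and of each fixed list (y axis); filled points are called genes, open points are not called, and bars are medians. The 7 factors tested run from -7.29 to -0.80, and the medians of the oligodendrocyte, mesenchymal, neural crest, epithelial and kidney lists lie above 0.

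Markers of other cell types moved with the lower member levels in KO NPCs. For all genes tested there, the shares called were 8.36% lower and 8.45% higher. All 8 neural progenitor markers had counts in both WT libraries. In KO, SOX2, FABP7, SOX3, SOX1 and PAX6 fell, SOX1 was at 1 and 2 counts and HES5 at 0, whereas NES and VIM were not called. NES and VIM carry most of the counts of this list, and its sum was 9570 to 9807 CPM in WT and 9601 to 10310 CPM in KO. The neuron list had 4 of 9 lower and 1 higher, and its sum was 1084 to 1177 CPM in WT and 174.7 to 219.7 CPM in KO. The mesenchymal list had 5 of 10 higher and 0 lower, with sums of 2349 to 2968 CPM in WT and 8624 to 9442 CPM in KO. The neural crest list had 4 of 7 higher and 0 lower, with sums of 22.3 to 25.4 CPM in WT and 191 to 254 CPM in KO. Epithelial markers had 3 of 6 higher (342 to 597 CPM in WT, 1317 to 1475 CPM in KO), kidney developmental markers 2 of 5 higher (3.63 to 3.88 and 95.9 to 137 CPM), and pluripotent markers 1 lower and 1 higher of 4 (139 to 161 and 65.1 to 70.4 CPM). No listed marker but NANOG and HES5 was at 0 in both KO libraries, and FOXD3 was at 0 in both WT libraries. The part of these shifts in the levels of the 8 factors was not tested. WT and KO libraries of HEK293T cells had 5 or 6 of 6 listed kidney developmental markers with counts, and 0 of 5 tested were called.

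INSM1 and OLIG1 were the members above 1 CPM in a group mean and listed in both tables, and for them the most similar patterns were sought by Pearson correlation of log2 CPM over the 10 libraries among 14942 genes. For INSM1 they were KHDC4 (r = 0.972), PCBP2 (r = 0.971) and SAXO2 (r = 0.968), and 132 genes had r above 0.9. For OLIG1 they were USP27X-DT (r = 0.958), RPRM (r = 0.921) and SBNO1-AS1 (r = 0.915), and 9 genes had r above 0.9. The libraries fall into 4 groups and share cell type and genotype within a group, so these r describe the pattern across groups.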

How the data were processed

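RNA was sequenced from 10 libraries. The authors aligned stranded mRNA reads (HISAT2, hg19), assigned unique alignments to genes and transposable elements (featureCounts), and deposited counts per gene without normalization, 1 table per cell type; versions and annotation are not given in the sources used here. Groups were taken from the sample labels. In each cell type, genes with a total count of at least the number of libraries were tested with edgeR 4.0.16 (TMM, quasi-likelihood test, no robust estimation, Benjamini-Hochberg adjustment over all genes) in R 4.3.3. Calls needed an adjusted p under 0.05 and more than a 2-fold change. The interaction and the WT comparison were fitted over all 10 libraries. SEs were obtained by dividing the log2 FC by the root of the F statistic. Alternatives were limma 3.58.1 voom, DESeq2 1.42.0, other size factors, filters and thresholds, and leaving out each library. The fits were also run on simulated data, and the outcome is not reported here. Libraries of a group differed by more than sampling noise. Gene positions came from GENCODE v44 lifted to GRCh37, in which 23273 of 24050 identifiers were found. The 8 members were named in all comparisons, and at most 4 genes per list, those with the smallest p in NPCs; other genes named were chosen after their values were seen. The members and lists were chosen with earlier results of these data known. The labels give no replicate numbers, so libraries were not paired. An item on the lists is not reported here.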

Additional observations from a re-analysis of the deposited data

Results flagged for a closer look

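The KO effect on 3 members differed between the cell types by an interaction test over all 10 libraries. The log2 FC in NPCs minus that in HEK293T cells was -7.50 for NEUROG2, -7.26 for OLIG1 and -4.65 for INSM1. In both KO NPC libraries NEUROG2 and OLIG1 were at 0 counts, and INSM1 was at 3 and 0 counts. In HEK293T cells KO and WT libraries overlapped for all 3 genes. Leaving out WT NPC S3 removed the call of INSM1 (difference -3.77), and leaving out KO HEK293T S18 that of NEUROG2. The number of members called was 1 in limma voom, where INSM1 kept its call, 0 without KO NPC library S2, and 1 without KO NPC S1, WT NPC S5, WT HEK293T S15 or S17, or KO HEK293T S20.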

How the results depend on the processing

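In NPCs the number of members called lower, 3, was 0 by limma voom, 1 with filterByExpr (which left 2 members to test), 0 at an adjusted p below 0.01, 4 with all 10 libraries in 1 fit, which added OLIG1, and 0 to 5 when 1 library was left out. For the interaction it was 1 by limma voom, 0 at an adjusted p below 0.01 and 0 to 3 without 1 library. The 4 members higher in WT NPCs than in WT HEK293T cells became 2 by DESeq2, 1 with filterByExpr (which left 4 members to test and removed NEUROG1, NEUROD1 and NEUROD4), 2 at an adjusted p below 0.01 and 0 to 4 without 1 library. Apart from the members removed by a filter, the cause was not tested. Members called in HEK293T cells stayed at 0 in all 15 alternatives, and members called higher in NPCs at 0 in all 13.
Reversed signs came only from members that were not called. In HEK293T cells library size alone gave a log2 FC of 0.0245 for NEUROG2 and 0.00868 for OLIG2, and limma voom gave -0.0186 for NHLH1. Between the WT cell types limma voom gave -0.0283 for NEUROG2. Without 1 library, the log2 FC ranged from -5.80 to 1.70 for NEUROD1 in NPCs, and in HEK293T cells from -0.34 to 0.42 for NEUROG2, -0.22 to 0.73 for INSM1, -0.29 to 0.46 for NHLH1 and -0.26 to 0.17 for OLIG2. The interaction of NEUROD1 ranged from -6.95 to 0.89, and between the WT cell types NEUROG2 ranged from -1.95 to 1.62 and OLIG1 from -2.80 to 0.16. Library size alone moved the median log2 FC of all genes from -0.02 to -0.13 in NPCs and from -0.03 to -0.24 in the interaction. At an adjusted p below 0.01, 1009 of all genes were called lower in NPCs instead of 1721, and in HEK293T cells DESeq2 called 153 higher instead of 91. At 0 to 49 counts in NPCs, depth and 2 libraries per group limit every member. No paired analysis was possible because the labels give no replicate numbers.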

Other observations

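The KO NPC libraries differed from each other for several neuronal and neural crest genes, which were chosen after their values were seen. Their total counts were 21049602 in S1 and 23035490 in S2. NHLH1 had 14 counts in S1 and 3 in S2, and NEUROD1 had 7 and 0. EBF2, a neuronal differentiation factor, had 128 counts in S1 and 37 in S2, ELAVL4, a neuronal RNA-binding protein, 23 and 7, and POU4F1, a factor of sensory neurons, 15 and 5. Of the neural crest markers, SOX10 had 146 counts in S1 and 31 in S2, NGFR 505 and 145, FOXD3 10 and 2, TFAP2B 71 and 29, TFAP2A 10 and 8, SNAI2 3516 and 2887, and PAX3 882 and 1145, so that PAX3 was higher in S2. The whole neural crest list summed to 254 CPM in S1 and 191 CPM in S2. EBF3 went the other way, with 57 counts in S1 and 161 in S2. The WT libraries had at most 10 counts of each of EBF2, EBF3, ELAVL4, POU4F1, SOX10 and FOXD3. These values compare 2 libraries, and no test was run on them.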
